A study of Rattus norvegicus with 10 samples.

Results

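The genes described here were 9 markers of mural cells, the smooth muscle cells and pericytes that wrap blood vessels: *Acta2*, *Myh11*, *Tagln*, *Cnn1*, *Smtn*, *Pdgfrb*, *Rgs5*, *Cspg4* and *Notch3*. They were picked by symbol, and all 9 were among the 18025 genes listed in the deposited expression table. The table held messenger RNA of wild-type (wt) Sprague-Dawley rat hearts at embryonic day 19.5, from 5 control (CON) and 5 hyperglycemia (HG) libraries. Dams and sires were 3 months old, and sires were normoglycemic. The HG dams were injected with streptozotocin (STZ), a toxin of the insulin-producing beta cells, and the CON dams with citric acid buffer only, in each case on 3 days in a row. HG dams had non-fasting blood glucose above 16 mM after 7 days. Every HG fetus therefore came from a dam that had received STZ, and no group carried hyperglycemia without it. The labels call the material heart tissue, whereas a legend of the study speaks of isolated cardiomyocytes. It is not stated whether hearts of a group came from separate litters, so that p-values may measure only the spread among these samples.

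Mural cells stabilize vessels and set their diameter. Smooth muscle cells line arteries and contract through an actin and myosin apparatus built of α-actin, smooth muscle myosin, calponin, smoothelin and transgelin, whose genes are driven by serum response factor (SRF) with its partner myocardin through a DNA element called the CArG box. Pericytes sit on capillaries, are recruited by platelet-derived growth factor (PDGF) B from the endothelium through PDGF receptor β, and share the receptor Notch3 with smooth muscle. In the fetal heart, coronary mural cells arise largely from the epicardium, and *Acta2* and *Tagln* are also transcribed in embryonic cardiac muscle and in myofibroblasts.

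Values were FPKM, read numbers per length of the gene and per size of its library, so that levels of different genes can be compared per length. Each library held 16672876 to 19109844 reads on genes, and each mural cell gene had between 557 and 20729 reads per library, equal to a counting error of 4.24% to 0.695%. Reads of the Y chromosome showed that both groups were mixed in sex, with Y genes above 10 FPKM in 2 of 5 CON and 2 of 5 HG libraries. One pair of libraries stood apart. *Eln*, the gene of elastin in arterial walls, was at 47.2 FPKM in CON replicate 4 and 265.2 to 389.5 FPKM in the other CON libraries, and at 38.6 FPKM in HG replicate 4 and 129.6 to 202.9 FPKM in the other HG libraries. *Fbln5*, which assembles elastic fibers, was at 3.85 FPKM in CON replicate 4 and 3.84 FPKM in HG replicate 4, and at 18.0 to 37.7 FPKM in the other 8 libraries. Values without both libraries numbered 4 are given where they matter, and the calls of the 9 genes held without them, except that *Pdgfrb* was then called as well.

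Promoters of 3 contractile genes are shown because these genes parted ways in the comparison, with *Acta2* and *Cnn1* higher in HG and *Smtn* not past the test. The 250 bases before the start of transcription were taken from RefSeq (build GRCr8), which had entries for 6 of the 9 genes, and capitals mark matches to the CArG box at 9 or more of its 10 letters. The element reads the same on both strands. The *Acta2* promoter is chr1:241172504-241172753 (minus strand), that of *Cnn1* chr8:28908187-28908436 (plus strand) and that of *Smtn* chr14:82644515-82644764 (minus strand), each written 5′ to 3′ on its own strand.
Acta2: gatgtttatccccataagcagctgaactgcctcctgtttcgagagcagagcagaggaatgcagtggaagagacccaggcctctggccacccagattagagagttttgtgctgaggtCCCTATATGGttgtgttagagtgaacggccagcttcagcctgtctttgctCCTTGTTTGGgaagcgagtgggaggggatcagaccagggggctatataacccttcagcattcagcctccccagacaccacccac
Cnn1: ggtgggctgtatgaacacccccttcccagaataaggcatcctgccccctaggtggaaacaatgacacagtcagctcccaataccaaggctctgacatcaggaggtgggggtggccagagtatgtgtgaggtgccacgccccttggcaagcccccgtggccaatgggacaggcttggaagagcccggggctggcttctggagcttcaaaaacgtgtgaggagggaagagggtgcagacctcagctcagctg
Smtn: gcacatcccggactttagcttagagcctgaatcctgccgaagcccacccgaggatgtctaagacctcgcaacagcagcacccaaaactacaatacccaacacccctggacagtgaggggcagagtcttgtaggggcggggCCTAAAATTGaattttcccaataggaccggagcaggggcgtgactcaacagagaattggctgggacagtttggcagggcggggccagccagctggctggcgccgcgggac

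*Acta2* held 2 such matches, *Smtn* held 1 and *Cnn1* held 0, and none of these 3 promoters, nor those of *Rgs5*, *Cspg4* and *Notch3*, held an exact match. *Rgs5*, *Cspg4* and *Notch3* held no match at 9 letters either. Among 33465 rat promoters of the same length, 1.50% held an exact match, 18.7% held at least 1 match at 9 letters and 3.05% held 2 or more. These matches describe letters only, and binding was not measured.

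The mural cell genes moved in both directions in HG hearts. Of the 5 contractile genes, *Cnn1* at 1.88-fold, *Tagln* at 1.38-fold and *Acta2* at 1.25-fold were higher in HG, and *Myh11* and *Smtn* did not pass the test. Of the 4 receptor, signal and surface genes, *Rgs5* and *Cspg4* were lower, at 0.805-fold and 0.819-fold, and *Pdgfrb* and *Notch3* did not pass. All 9 genes were tested, and 5 were called at an adjusted p under 0.05 (55.6%), against 40.1% of the 14542 genes tested. Of the 9, 3 were called higher, beside 28.4% of all genes, and 2 were called lower, beside 11.8% of all genes. Their median log2 fold change was 0.16, beside 0.09 over all genes tested. None of the 9 was also past a 2-fold change, which 1.94% of all genes were. Groups did not overlap in 4 of the 9 genes, beside 27.4% of all genes. The shares over 9 genes were not tested against those over all genes. In whole hearts, fewer cells of a type and less RNA per cell cannot be told apart.

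**Figure D1:**
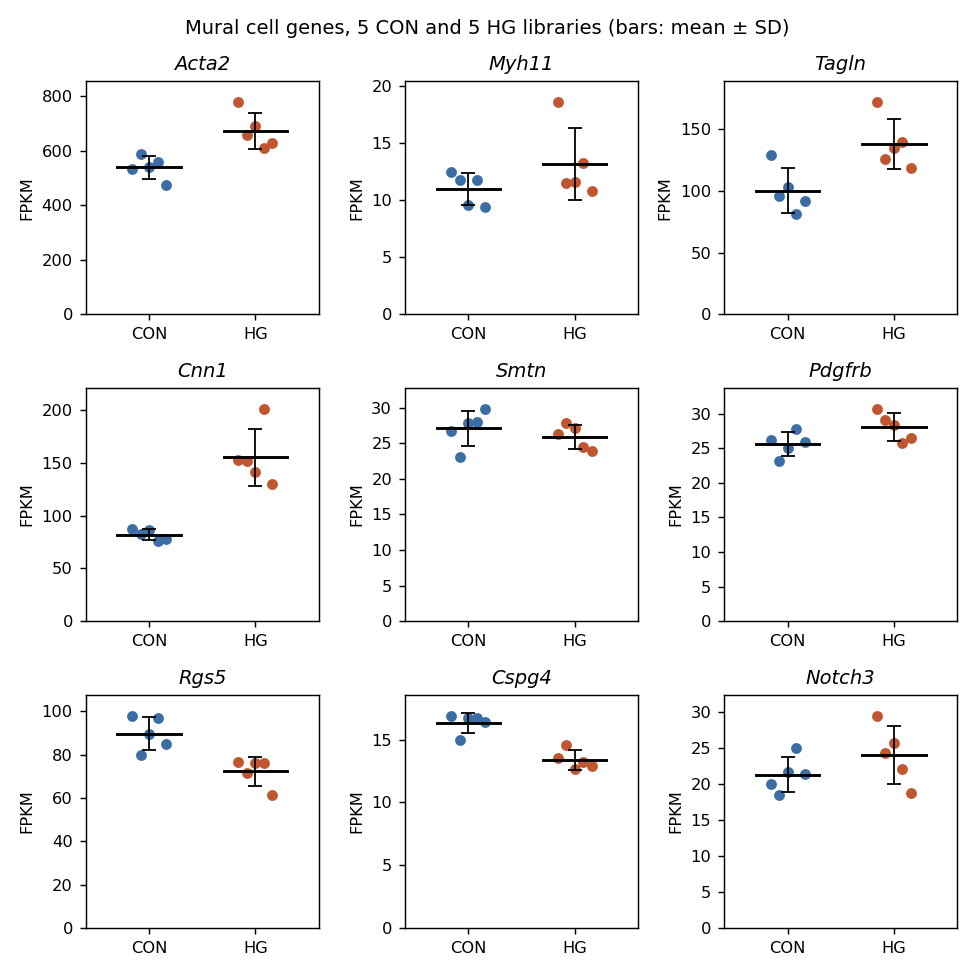
FPKM of the 9 mural cell genes in each of 5 CON and 5 HG libraries (points), with the mean and SD of each group (bars), on axes that start at 0. The HG points lie above all CON points for *Acta2* and *Cnn1*, below all of them for *Rgs5* and *Cspg4*, and overlap with them for the other 5 genes.

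*Acta2* (NCBI Gene 81633), smooth muscle α-actin of the contractile filament, was the most abundant of the 9. Its FPKM was 531.8, 588.0, 540.8, 558.1 and 472.5 in CON replicates 1 to 5, and 777.2, 658.0, 689.0, 611.3 and 628.7 in HG replicates 1 to 5. Every HG library stood above every CON library, and HG replicate 1 was the highest. The group means were 538.2 ± 42.6 and 672.9 ± 65.4 FPKM (SD, n = 5 each), a log2 fold change of 0.32 with a standard error of 0.0703 and an adjusted p of 0.00341. The 95% interval of the fold change was 1.12 to 1.39. Related actins are close to it in sequence, and reads may be shared among them. Skeletal α-actin (*Acta1*) fell from 2362 ± 123.1 to 1857 ± 302.3 FPKM (log2 fold change of -0.36, adjusted p = 0.0110), and cardiac α-actin (*Actc1*) had means of 10911 ± 372.7 (CON) and 9821 ± 1071 FPKM (HG) (log2 fold change of -0.16, adjusted p = 0.114). *Acta1* was not called after quantile normalization (log2 fold change of -0.21, adjusted p = 0.120), and *Actc1* was called lower after median-of-ratios scaling (-0.25, adjusted p = 0.0463).

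*Tagln* (NCBI Gene 25123), the actin-bundling protein transgelin, is an early gene of smooth muscle. It was measured at 128.9, 95.9, 103.3, 80.9 and 91.5 FPKM in the CON libraries, and at 171.6, 126.1, 134.2, 139.5 and 118.5 FPKM in the HG libraries, in replicate order. CON replicate 1 stood above HG replicates 2 and 5, so that the groups overlapped, although the other CON values were below all HG values. Mean FPKM rose from 100.1 ± 18.0 to 138.0 ± 20.4, a log2 fold change of 0.47 ± 0.119 (SE) with an adjusted p of 0.00784 and a 95% interval of the fold change of 1.16 to 1.65.

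*Cnn1* (NCBI Gene 65204), calponin of the thin filament, restrains the actomyosin ATPase and marks differentiated smooth muscle. In CON libraries it was at 87.5, 82.6, 86.3, 75.9 and 77.6 FPKM, within a narrow range. In HG libraries it was at 153.4, 151.7, 141.3, 201.3 and 130.2 FPKM, and the lowest of these exceeded the highest CON value. It had the largest difference of the 9 genes, from a mean of 82.0 ± 5.14 to one of 155.6 ± 27.2 FPKM, which is 0.91 ± 0.0948 (SE) on the log2 scale, at an adjusted p of 2.37e-05 and a 95% interval of the fold change of 1.63 to 2.17. HG replicate 4 was its highest library, one of the pair with low elastin. Without both libraries numbered 4, the log2 fold change was 0.79.

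*Myh11* and *Smtn*, usually read as signs of mature contractile smooth muscle, did not pass the test. *Myh11* (NCBI Gene 24582), the myosin heavy chain of smooth muscle, was the least abundant of the 9 in CON. It was at 12.5, 11.8, 9.55, 11.8 and 9.44 FPKM in CON, and at 18.6, 11.6, 11.6, 13.2 and 10.9 FPKM in HG. HG replicate 1 stood far above the rest, and 3 of the other 4 HG values lay within the CON range. Means of 11.0 ± 1.42 and 13.2 ± 3.16 FPKM gave a fold change of 1.18, with a 95% interval of 0.962 to 1.45 and an adjusted p of 0.183. *Smtn* (NCBI Gene 289734), smoothelin of contractile smooth muscle, was at 26.7, 23.1, 27.9, 28.0 and 29.8 in CON and at 26.3, 27.8, 27.1, 24.4 and 24.0 FPKM in HG. All HG values of *Smtn* fell inside the CON range. Its fold change was 0.958, with a 95% interval of 0.867 to 1.06 and an adjusted p of 0.494.

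*Pdgfrb* (NCBI Gene 24629) codes for the receptor through which PDGF-B recruits mural cells to the endothelium. Its values were 26.2, 23.1, 25.0, 27.7 and 25.9 in CON and 30.7, 29.1, 28.3, 25.7 and 26.4 FPKM in HG. HG replicates 1 to 3 stood above all CON libraries and HG replicates 4 and 5 among them. The means were 25.6 ± 1.68 and 28.0 ± 2.00 FPKM, a fold change of 1.09 with a 95% interval of 1.00 to 1.19, and the adjusted p of 0.0951 missed the threshold. The value hung on single choices. Its log2 fold change of 0.13 became 0.04 after median-of-ratios scaling (adjusted p = 0.653) and 0.08 after quantile normalization (adjusted p = 0.341). The adjusted p was under the threshold in 3 of 23 alternatives, at 0.0489 without HG replicate 4, 0.0287 without both libraries numbered 4 and 0.0483 with the level of Y chromosome genes as a covariate.

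*Notch3* (NCBI Gene 56761), the Notch receptor largely restricted to mural cells, spread widely within groups. It was at 20.0, 18.4, 21.6, 24.9 and 21.4 in CON and at 29.4, 24.2, 25.6, 22.0 and 18.8 FPKM in HG. HG replicates 1 and 3 stood above all CON libraries, and HG replicates 2, 4 and 5 among them. Means of 21.3 ± 2.42 and 24.0 ± 3.98 FPKM gave a fold change of 1.12, with a 95% interval of 0.951 to 1.32 and an adjusted p of 0.255.

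*Rgs5* (NCBI Gene 54294), a regulator of G-protein signaling that is abundant in pericytes, fell in HG. It was at 97.8, 79.7, 89.3, 96.9 and 84.8 FPKM in CON, and at 76.5, 71.3, 76.0, 76.1 and 61.2 FPKM in HG. All HG libraries were below all CON libraries, with HG replicate 5 the lowest. Mean FPKM was 89.7 ± 7.79 in CON and 72.2 ± 6.54 in HG, a log2 fold change of -0.31 with a standard error of 0.0720, an adjusted p of 0.00456 and a 95% interval of the fold change of 0.722 to 0.897.

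*Cspg4* (NCBI Gene 81651), the NG2 proteoglycan on the surface of pericytes, fell as well. Its values were 16.9, 15.0, 16.7, 16.8 and 16.5 in CON and 13.5, 14.6, 12.6, 13.3 and 12.9 FPKM in HG. The groups did not overlap, but CON replicate 2 and HG replicate 2 were close to each other. Means of 16.4 ± 0.792 and 13.4 ± 0.762 FPKM gave a log2 fold change of -0.29 with a standard error of 0.0511, an adjusted p of 0.000887 and a 95% interval of the fold change of 0.758 to 0.884. In GRCr8 the gene overlaps *Cimap1c*, listed in the table as *Odf3l1*, and a transfer RNA gene. *Odf3l1* was at a mean of 0.214 in CON and 0.318 FPKM in HG, far below *Cspg4*.

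**Figure D2:**
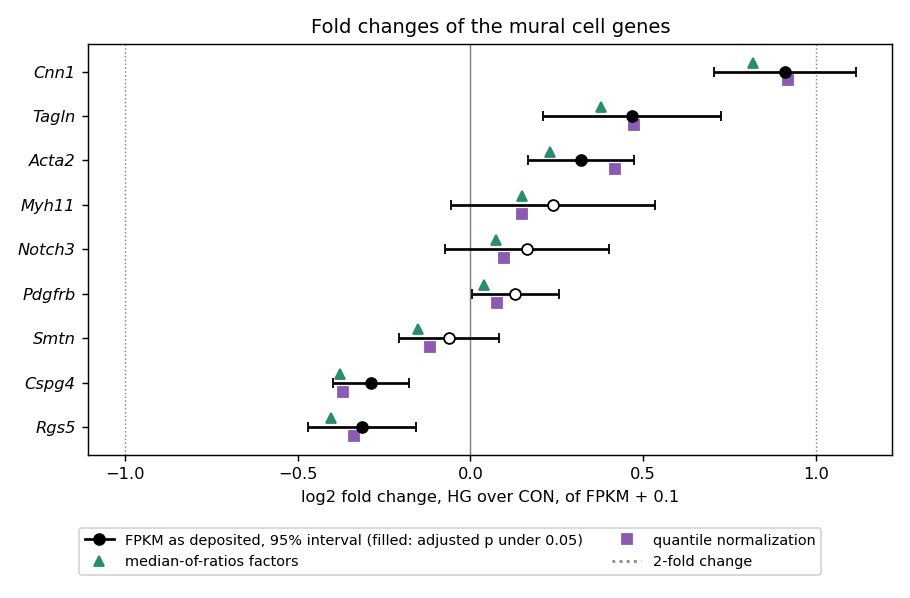
Log2 fold change (HG over CON, of FPKM + 0.1) of each mural cell gene with its 95% interval (circles, filled where the adjusted p was under 0.05), and the same after median-of-ratios (triangles) and quantile scaling (squares). From *Cnn1* at 0.91 to *Rgs5* at -0.31, all 9 genes kept their sign under both scalings, and none passed a 2-fold change.

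More genes were called higher than lower in HG over the whole table, and this split depended on scaling. Higher genes made up 70.7% of the calls on deposited FPKM, 47.1% after median-of-ratios scaling, 53.0% after quantile normalization and 75.0% with hemoglobin genes left out. Under each of these scalings, 3 mural cell genes were called higher and 2 lower, and all 9 kept their sign. Of all genes, 28.4% were called higher and 11.8% lower on deposited FPKM, and 15.6% and 17.6% after median-of-ratios scaling. These shares were 18% and 15.9% after quantile normalization, and 31.7% and 10.6% with hemoglobin genes left out. The log2 fold change of *Acta2* ranged from 0.23 to 0.42 over all alternatives tried, that of *Tagln* from 0.38 to 0.56, that of *Cnn1* from 0.79 to 0.97, that of *Rgs5* from -0.40 to -0.25 and that of *Cspg4* from -0.38 to -0.26.

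The order of the 9 genes by mean level differed between groups. In CON hearts it ran from *Acta2* through *Tagln*, *Rgs5*, *Cnn1*, *Smtn*, *Pdgfrb*, *Notch3* and *Cspg4* to *Myh11*. *Tagln* stood above *Rgs5*, and *Rgs5* above *Cnn1*, in 4 of 5 CON libraries each, and the other neighbors kept their order in 5 of 5. In HG hearts *Cnn1* had the second highest mean, above *Rgs5* in 5 of 5 libraries and above *Tagln* in 4 of 5, and *Pdgfrb* was above *Smtn* in 5 of 5. *Smtn* over *Notch3* and *Cspg4* over *Myh11* held in 4 of 5 HG libraries each. All neighbors at 4 of 5, in either group, were not apart in every library, and no order was tested. The summed FPKM of the 9 genes, most of it *Acta2*, was 829.4 to 948.4 in CON and 1032 to 1297 in HG.

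Ratios between genes of one library are free of the scaling of that library, and 3 were tested with two-sided exact permutation tests, whose smallest p for 5 against 5 libraries is 0.00794. *Myh11* over *Acta2*, a late against an early contractile gene, was 0.0205 ± 0.00210 in CON and 0.0195 ± 0.00316 in HG (log2 difference of -0.08, exact p = 0.516, adjusted over the 3 ratios 0.706). *Notch3* over *Pdgfrb* was 0.829 ± 0.0541 in CON and 0.852 ± 0.0934 in HG (log2 difference of 0.03, exact p = 0.706, adjusted 0.706). Neither ratio differed beyond the spread between libraries. *Pdgfrb* over *Pecam1*, a mural against an endothelial gene, was 0.395 ± 0.0337 in CON and 0.451 ± 0.0302 in HG (log2 difference of 0.19, exact p = 0.0317, adjusted 0.0952). CON replicate 4, at 0.448, was the only CON library to reach into the HG range of 0.432 to 0.504. Without it the log2 difference was 0.24 with an exact adjusted p of 0.0238. The groups then no longer overlapped, so that this p was fixed by the choice of library and is no support. Without both libraries numbered 4 the log2 difference was 0.25 with an exact adjusted p of 0.0857. The groups did not overlap in this setting either, and this was the smallest value that 4 against 4 libraries allow for 1 separated ratio of 3. It could therefore not pass the threshold, and no conclusion is drawn from it.

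Other ratios were chosen after the values were seen and are given without a test. *Cnn1* over *Acta2* was 0.136 to 0.165 in CON libraries and 0.197 to 0.329 in HG libraries. *Rgs5* over *Pdgfrb* was 3.27 to 3.73 in CON and 2.31 to 2.96 in HG. *Cspg4* over *Pdgfrb* was 0.605 to 0.667 in CON and 0.442 to 0.515 in HG. In these 3 ratios the groups did not overlap, so that *Cnn1* was higher relative to *Acta2*, and *Rgs5* and *Cspg4* were lower relative to *Pdgfrb*, in every HG library. *Tagln* over *Acta2* overlapped between groups, at 0.145 to 0.242 in CON and 0.189 to 0.228 in HG.

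**Figure D3:**
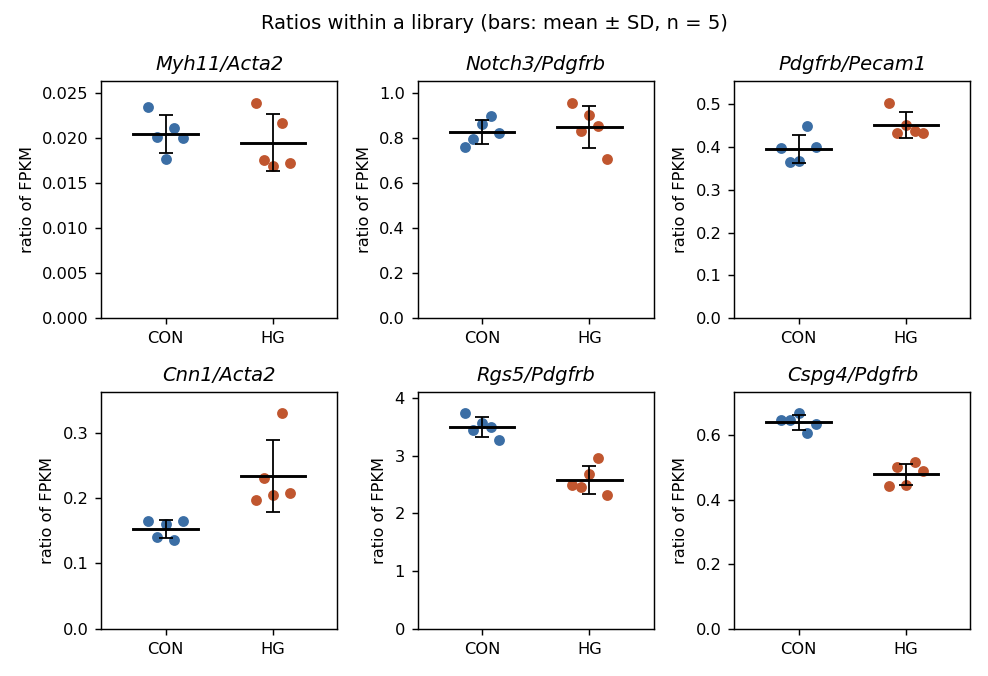
FPKM ratios within each library (points), with the mean and SD of 5 CON and 5 HG libraries (bars), on axes that start at 0. The upper 3 ratios overlap between groups and were tested, while the lower 3, chosen after their values were seen, do not overlap, for example *Rgs5* over *Pdgfrb* with means of 3.50 in CON and 2.58 in HG.

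Within each group, some libraries were the highest or lowest for several of the mural cell genes, though not for all, and how often other genes do so was not tested. HG replicate 1 was the highest HG library for 6 of the 9 genes, and HG replicate 5 the lowest for 6. CON replicate 1 was the highest CON library for 5 genes and CON replicate 2 the lowest for 5. After the group means were removed, the 36 pairs of genes had Pearson correlations of -0.32 to 0.84 over 10 libraries with a median of 0.39, and 28 were above 0. The highest were *Pdgfrb* with *Notch3* at 0.84, *Smtn* with *Pdgfrb* at 0.73, *Rgs5* with *Notch3* at 0.71 and *Acta2* with *Myh11* at 0.70. The genes of a pair share library, depth and dissection, so that these values are a description. Of 11708 genes averaging 1 FPKM or more, those most like *Acta2* in these deviations were *Ghdc* (r = 0.92), *Smim1* (r = 0.90) and *Rogdi* (r = 0.90). Most like *Myh11* were *Errfi1* (r = 0.93), *Imp4* (r = 0.90) and *LOC100125367* (r = 0.89), and most like *Pdgfrb* were *Npepl1* (r = 0.95), *Nphp4* (r = 0.93) and *Wdr24* (r = 0.93). Picking the highest of 11708 values over only 10 libraries can by itself give r this high. A link between these genes was not tested.

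**Figure D4:**
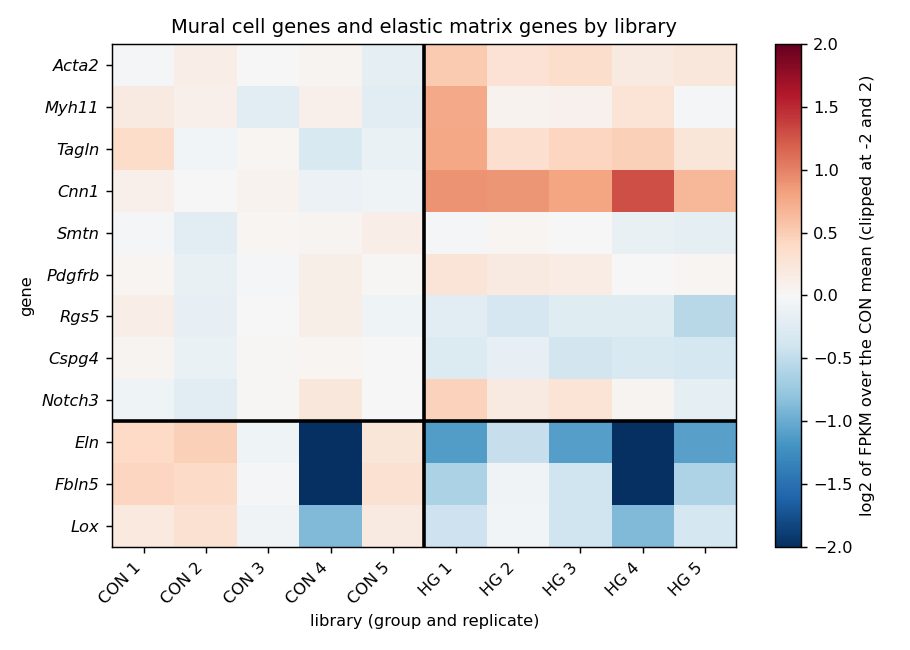
Log2 of FPKM over the CON mean for the 9 mural cell genes and 3 elastic matrix genes (rows) in the 10 libraries (columns), with the color scale clipped at -2 and 2. *Eln* and *Fbln5* are darkest blue in CON replicate 4 and HG replicate 4, whereas these libraries were each the lowest of their group for only 2 of the 9 mural cell genes.

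Other contractile genes of smooth muscle moved in both directions. Of 16 tested, 4 were called higher (25.0%) and 5 lower (31.2%), beside 28.4% and 11.8% of all genes. Their median log2 fold change was -0.03, beside 0.09. After median-of-ratios scaling 1 was called higher and 5 lower, beside 15.6% and 17.6% of all genes. *Itga8*, an integrin of smooth muscle, rose from 3.97 ± 0.823 to 6.71 ± 0.568 FPKM (log2 fold change of 0.76, adjusted p = 0.000482). *Cald1*, caldesmon of the thin filament (0.19, adjusted p = 0.0119), and *Pdlim7*, an actin-linked adaptor (0.17, adjusted p = 0.0129), were also called higher, but neither was called under median-of-ratios or quantile scaling. *Actg2*, the γ-actin of visceral smooth muscle, fell from 13.4 ± 1.97 to 7.07 ± 2.03 FPKM (log2 fold change of -0.94, adjusted p = 0.00100). *Pln*, phospholamban of the calcium pump, fell by 0.48 on the log2 scale, from 564.1 to 405.5 FPKM (adjusted p = 8.53e-06), and *Des*, the intermediate filament desmin, by 0.34, from 600.1 to 475.9 FPKM (adjusted p = 0.000625). *Pln* and *Des* are also genes of cardiac muscle. *Synpo2* (log2 fold change of -0.39, adjusted p = 0.00341) was called lower too, as was *Lmod1* (-0.61, adjusted p = 0.0313), at means of 1.25 in CON and 0.759 FPKM in HG. Both were also called after median-of-ratios and quantile scaling. *Mylk*, the kinase that starts smooth muscle contraction (log2 fold change of -0.04), and *Myl9*, its light chain substrate (-0.02), were not called.

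Of 16 other pericyte genes tested, 4 were called higher (25.0%) and 4 lower (25.0%), beside 28.4% and 11.8% of all genes (median of 0.07). After median-of-ratios scaling 2 and 5 were called, beside 15.6% and 17.6% of all genes. *Ebf1*, a transcription factor of stromal lineages, rose from 2.67 ± 0.122 to 3.72 ± 0.331 FPKM (log2 fold change of 0.46, adjusted p = 0.000492), and *Tbx18*, a T-box factor of mural and epicardial cells, from 9.38 ± 0.907 to 13.6 ± 2.34 FPKM (0.52, adjusted p = 0.00210). *Gucy1b1*, a subunit of the nitric oxide receptor, rose by 0.24 on the log2 scale (adjusted p = 0.00420), with an adjusted p of 0.0520 after median-of-ratios scaling. *Ndufa4l2*, a mitochondrial gene abundant in pericytes, fell from 7.80 ± 1.04 to 4.93 ± 0.913 FPKM (log2 fold change of -0.66, adjusted p = 0.00159). *Vtn*, vitronectin (-1.34, adjusted p = 0.00423), and *Higd1b*, a small mitochondrial protein (-1.35, adjusted p = 0.00682), fell from means under 1 FPKM. *Kcnj8*, the pore of the pericyte potassium channel, had a log2 fold change of -0.25 and was not called (adjusted p = 0.0844).

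Among other ligands and receptors of the PDGF family, 2 of 5 (40.0%) were called higher and 0 lower by limma, beside 28.4% and 11.8% of all genes (median of 0.05). By voom on reads 0 were lower, and at an unadjusted p under 0.05 1 was lower. After either median-of-ratios or quantile scaling 1 was lower, beside 17.6% and 15.9% of all genes. *Pdgfra*, the α receptor of fibroblasts, rose from 9.94 ± 0.591 to 12.2 ± 1.17 FPKM (log2 fold change of 0.29, adjusted p = 0.00449), and *Pdgfc*, a ligand of that receptor, from 3.28 ± 0.342 to 4.19 ± 0.301 FPKM (0.34, adjusted p = 0.00588), with an adjusted p of 0.0540 for *Pdgfc* after quantile normalization. *Pdgfb*, the ligand of the receptor that *Pdgfrb* encodes, was at 12.9 ± 0.617 in CON and 12.2 ± 1.56 FPKM in HG and was not called (adjusted p = 0.450).

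Of 14 Notch ligands, receptors and targets, 7 were called higher (50%) and 1 lower (7.14%), beside 28.4% and 11.8% of all genes (median of 0.20). After either median-of-ratios or quantile scaling only 3 and 1 were called. Of all genes, 15.6% and 17.6% were called under the first scaling, and 18% and 15.9% under the second. *Hey1*, a transcriptional target of Notch, rose from 3.22 ± 0.355 to 4.76 ± 0.608 FPKM (log2 fold change of 0.55, adjusted p = 0.00109). *Dll4*, the arterial ligand, rose by 0.37 on the log2 scale (adjusted p = 0.00112) and *Maml1*, a coactivator, by 0.36 (adjusted p = 0.00143), and these 3 genes were called under both scalings. *Jag2*, another ligand, fell by 0.23 on the log2 scale (adjusted p = 0.0219, and 0.0796 without both libraries numbered 4). *Heyl*, a Notch target of vascular smooth muscle, had a log2 fold change of -0.09 and was not called.

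Of 9 tested regulators around SRF and myocardin, 0 were called higher and 3 lower (33.3%) by limma, beside 28.4% and 11.8% of all genes (median of -0.06). By voom 0 were higher, and at an unadjusted p under 0.05 1 was higher. After median-of-ratios scaling 0 and 4 were called, beside 15.6% and 17.6% of all genes. *Gata6*, a factor of vascular and cardiac muscle, fell from 70.7 ± 2.11 to 57.0 ± 1.08 FPKM (log2 fold change of -0.31, adjusted p = 2.17e-05). *Csrp2*, a partner of SRF and GATA factors, fell by 0.40 on the log2 scale (adjusted p = 0.00202), and *Foxo4*, a repressor of myocardin activity, by 0.17 (adjusted p = 0.00855). *Srf* at 70.8 ± 4.28 and 74.8 ± 8.85 FPKM and *Myocd* at 16.4 ± 0.844 and 15.6 ± 0.924 FPKM, in CON and HG, were not called (log2 fold changes of 0.07 and -0.07).

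Of 12 genes of angiopoietin, TGF-β and sphingosine phosphate signaling, which matures the vessel wall, 4 were called higher (33.3%) and 3 lower (25.0%). Shares over all genes were 28.4% and 11.8%, and the median of the 12 was 0.13. After median-of-ratios scaling 1 and 3 were called, beside 15.6% and 17.6% of all genes. *S1pr1*, an endothelial receptor needed for mural coverage, rose from 17.7 ± 1.43 to 24.9 ± 2.52 FPKM (log2 fold change of 0.49, adjusted p = 0.000311). *Tgfbr1* (log2 fold change of 0.22) and *Tie1* (0.20) were called higher on deposited FPKM, and neither was after median-of-ratios scaling. *Acvrl1*, an endothelial receptor of the TGF-β family, fell from 9.78 ± 0.559 to 7.38 ± 0.573 FPKM (log2 fold change of -0.40, adjusted p = 0.000368), *Tgfbr2* fell by 0.16 and *Angpt2* by 0.38 on the log2 scale, the last with an adjusted p of 0.0603 without both libraries numbered 4.

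Of 12 genes of the elastic matrix, 3 were called higher (25.0%) and 3 lower (25.0%), beside 28.4% and 11.8% of all genes (median of -0.20). Without both libraries numbered 4 these were 3 and 6, beside 25.2% and 10.4% of all genes. *Fbn2*, fetal fibrillin, rose from 33.0 ± 1.43 to 46.4 ± 5.44 FPKM (log2 fold change of 0.48, adjusted p = 0.000189), and *Emilin1* (0.22) and *Fbn1* (0.20) were called higher, the last not after median-of-ratios or quantile scaling. *Mgp*, an inhibitor of vascular calcification, fell from 388.7 ± 73.0 to 151.0 ± 17.5 FPKM (log2 fold change of -1.35, adjusted p = 9.31e-06), *Mfap5*, a microfibril protein, by 1.74 (adjusted p = 0.00183) and *Ltbp4* by 0.28 on the log2 scale. *Eln* itself had means of 280.0 ± 138.5 and 126.8 ± 58.3 FPKM and was not called (log2 fold change of -1.01, adjusted p = 0.175), but was called at -1.20 (adjusted p = 0.000401) without both libraries numbered 4. The same held for *Fbln5*, with an adjusted p of 0.519 and, without both, of 0.00291.

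Of 24 tested relatives of the 9 genes, whose sequences resemble them, 12 were called higher (50%) and 5 lower (20.8%), beside 28.4% and 11.8% of all genes (median of 0.21). After median-of-ratios scaling 7 and 6 were called, beside 15.6% and 17.6% of all genes. After quantile normalization 10 and 4 were called, beside 18% and 15.9% of all genes. Non-muscle relatives of calponin rose, *Cnn2* by 0.29 (adjusted p = 0.000630) and *Cnn3* by 0.25 on the log2 scale (adjusted p = 0.000318), each less than *Cnn1*. *Myh10*, a non-muscle myosin, rose from 74.2 ± 0.978 to 94.8 ± 5.50 FPKM (log2 fold change of 0.35, adjusted p = 4.72e-05), whereas the cardiac myosin *Myh6* fell by 1.03 and *Myh7* by 0.31 on the log2 scale. The receptor *Kit*, of the same family as *Pdgfrb*, fell by 0.50 on the log2 scale (adjusted p = 4.00e-05).

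**Figure D5:**
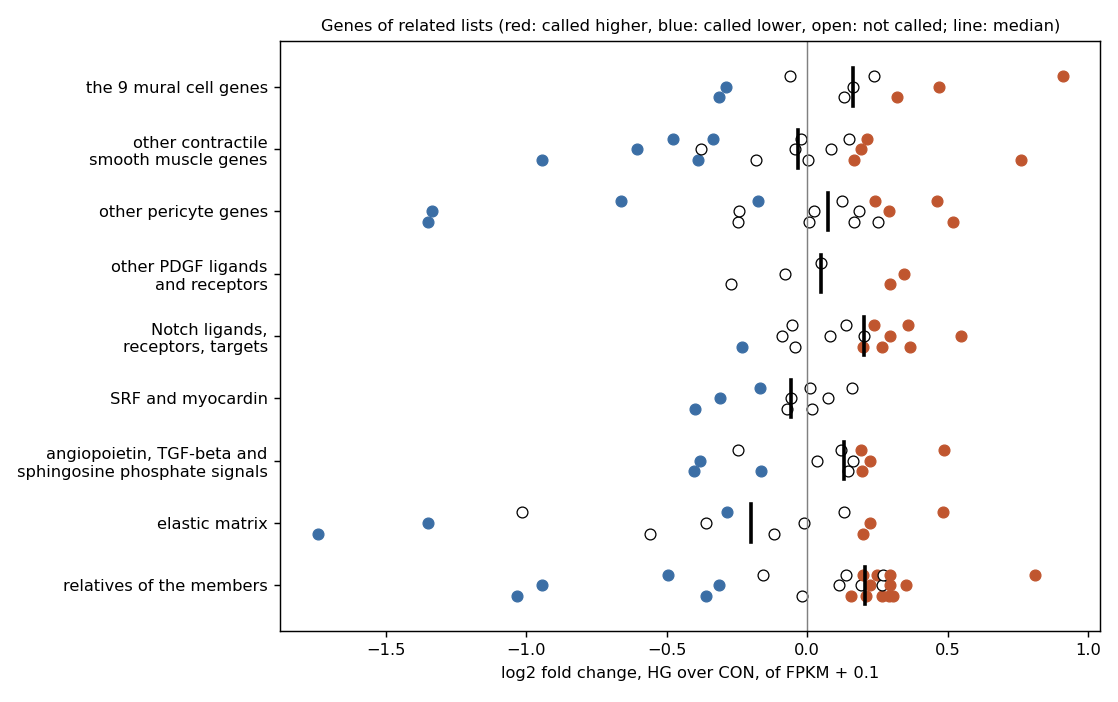
Log2 fold change (HG over CON, of FPKM + 0.1) of each gene of the 9 mural cell genes and 8 related lists (red, called higher; blue, called lower; open, not called), with the median of each list as a line. Called genes lie on both sides of 0 in 7 of the 9 rows, with medians from -0.20 for elastic matrix to 0.21 for relatives of the mural cell genes.

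Markers of other cell types in the heart also moved between groups, and their part in the values above was not tested. Their counts stand beside 28.4% of all genes called higher and 11.8% called lower. No marker listed in the table was at 0 in every library. Of 8 cardiomyocyte markers, 1 was called higher and 7 lower, and their summed FPKM was 10671 to 11353 in CON and 9511 to 11141 in HG. The higher one was *Nppa*, from 1733 ± 261.9 to 2855 ± 509.1 FPKM (log2 fold change of 0.71, adjusted p = 0.000797). This sum therefore mixes a large rise with the falls of the other 7, and its overlap does not mean that these 7 were unchanged. The 8 fibroblast markers, with 3 called higher and 4 lower, summed to 1354 to 1570 in CON and 1195 to 1367 FPKM in HG. Endothelial markers, with 2 of 9 higher and 0 lower on deposited FPKM, summed to 288.5 to 313.0 in CON and 294.8 to 325.4 FPKM in HG. After median-of-ratios scaling 1 endothelial marker was higher and 2 were lower, beside 15.6% and 17.6% of all genes. The 6 epicardial markers had 1 higher and 1 lower and summed to 21.9 to 28.4 and 22.5 to 29.6 FPKM. The 6 macrophage markers, with 3 higher and 0 lower, summed to 28.3 to 35.1 and 33.0 to 43.4 FPKM. Of these, *C1qa* was not called after median-of-ratios or quantile scaling, nor without both libraries numbered 4, which left 2 higher in each case. Shares of all genes called higher were then 15.6%, 18% and 25.2%. Red cell markers, with 5 of 6 lower, summed to 7008 to 12558 and 5173 to 7258 FPKM. Of 6 Schwann and neural markers 2 were tested and 0 called, and of 6 skeletal muscle markers 3 were tested, with *Myog* higher at a mean under 1 FPKM and *Ckm*, which the heart also expresses, lower. The counts of 0 in these marker lists were also 0 by voom and at an unadjusted p under 0.05, and, except for the endothelial list, after median-of-ratios scaling. Of the sums, only that of skeletal muscle, nearly all *Ckm*, did not overlap between groups, at 958.4 to 1121 in CON and 477.5 to 579.0 FPKM in HG.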

How the data were processed

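Messenger RNA libraries (TruSeq stranded, 5 CON and 5 HG hearts) were processed by the authors, whose processing notes name fastp, HISAT2, HTSeq, R 3.2.0 and the build mRatBN7.2. The authors deposited FPKM per gene, for which read numbers were divided by gene length and library size. All per-sample columns were used (0 unused). The 9 genes and all lists were chosen with earlier results of these data known.

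The 14542 genes averaging 0.1 FPKM or more entered, as log2(FPKM + 0.1), a linear model of limma 3.58.1 in R 4.3.3 with a trend on expression and no covariate, with Benjamini-Hochberg adjustment over all of them; called means an adjusted p under 0.05, and fold changes are on that scale, which understates low genes. Because the values were FPKM, the authors' count model was not used. Whole reads were recovered from the FPKM steps for 100% of genes (tolerance 0.001 reads) and compared with voom as an alternative. The model was tested on simulated data. Ratios were compared with exact permutation tests written in Python 3.11.15 with numpy 2.4.6, and figures drawn with matplotlib 3.10.9.

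Named list genes were up to 3 called higher and 3 called lower with the smallest adjusted p. *Acta1*, *Actc1*, *Odf3l1*, *Mylk*, *Myl9*, *Synpo2*, *Lmod1*, *Kcnj8*, *Pdgfb*, *Heyl*, *Srf*, *Myocd*, *Eln*, *Fbln5* and *Ckm* were named after their values were seen or as relatives. Alternatives were other pseudocounts, filters, scalings, array weights, no trend, a replicate block, Y genes as a covariate, voom, a 2-fold threshold, and each library left out. Leaving out both libraries numbered 4 was added after seeing the data.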

Additional observations from a re-analysis of the deposited data

Results flagged for a closer look

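Of 24 groups of 5 libraries (the FPKM of the 9 genes and the 3 tested ratios, in CON and in HG), 2 held a library far from the other 4, its gap to the nearest one being above 0.710 of the range. Chance gives about 1 in 20. *Cspg4* in CON was lowest in replicate 2 at 15.0 FPKM, a gap of 0.766 of the range, and this library was also the lowest CON library for 5 of the 9 genes. The ratio of *Pdgfrb* to *Pecam1* in HG was highest in replicate 1 at 0.504, a gap of 0.742 of the range, and the log2 difference of this ratio without that library was 0.15.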

How the results depend on the processing

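Over 23 alternatives each, all 9 mural cell genes kept their sign, and 8 kept their side of the threshold in all of them. *Pdgfrb* did so in 20 and passed it with Y chromosome genes as a covariate (log2 fold change of 0.13), without HG replicate 4 (0.16) and without both libraries numbered 4 (0.19). With a 2-fold threshold added, 0 of the 9 genes and 282 of all genes were called, 126 higher and 156 lower; under the other alternatives 5 or 6 of the 9 and 4822 to 6161 of all genes were called. The log2 difference of the *Pdgfrb* to *Pecam1* ratio ranged from 0.15 to 0.24 as single libraries were left out. Its adjusted p was under the threshold only without CON replicate 4 (0.24, exact adjusted p = 0.0238), the only CON library within the HG range. Without both libraries numbered 4 the groups did not overlap either, but the exact test could not pass with so few libraries. Over the genes tested, deviations of libraries of equal replicate number had correlations of -0.13 to 0.11, and 0 of 5 correlated best with their own number. Both libraries numbered 4 were nevertheless alike in low *Eln* and *Fbln5*, and whether they shared a dissection or batch was not tested. With the replicate number as a block, 5 of the 9 and 5096 of all genes were called, and the log2 differences of the ratios were -0.08, 0.03 and 0.19, for which the smallest exact p of 5 sign-flipped pairs is 0.0625. Depth limits little here, as the least covered of the 9 genes had 557 reads in a library, whereas 5 hearts per group, of unstated litters, set the width of the intervals.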
